A study of Mus musculus with 4 samples.

Results

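Integrins are the cell-surface receptors by which moving cells grip the extracellular matrix, and focal adhesion adaptors are the proteins that tie the integrin tails to actin and to kinase signals inside the cell. The genes described here were taken from the deposited expression table by symbol: every row beginning Itga or Itgb, less 4 genes that only share the letters (Itgb1bp1, Itgb1bp2, Itgb3bp and Itgbl1), and 13 named adaptors. This gave 40 of the table's 27178 genes, made up of 18 alpha subunits, 9 beta subunits and 13 adaptors. A read was seen for 25 of them, 12 receptors and 13 adaptors, and 15 receptor genes had 0 reads in every library.

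The RNA was that of enteric crest cells of Wnt1-tdT mice, taken at 11.5 days post coitum. There were 2 libraries of cells at the wavefront, the leading edge of the crest cells that colonise the gut, and 2 libraries of cells trailing 1 to 1.5 mm behind it. All 4 were sorted for the red fluorescent reporter that marks descendants of Wnt1-expressing neural crest, so both groups carry it. Nothing in the labels tells if the replicates of a group are different embryos, and the p-values then cover only the spread among these libraries, which may be technical. With 2 libraries a group, an exact two-sided permutation test over libraries could not go below p = 0.33.

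The wavefront libraries held 452144 and 114972 reads outside ribosomal RNA, and the trailing libraries held 386540 and 330644. Ribosomal RNA took 15.6% and 55.5% of wavefront reads against 24.4% and 26.1% of trailing reads, so a deposited CPM (a gene's reads scaled to a fixed library total) of wavefront replicate 2 is diluted relative to the other 3. Values below are therefore also given as whole reads, recovered from the deposited CPM, and as scaled CPM, which are CPM on a library size adjusted by edgeR's TMM factors. Of the listed crest markers, 3 abundant ones are given here. The receptor gene Ret had 1413 and 155 reads at the wavefront against 864 and 545 in trailing cells, Ednrb had 236 and 51 against 269 and 167, and the transcription factor gene Sox10 had 14 and 4 against 22 and 26. Tfap2a, another of the list, had 7 and 0 against 4 and 5. The 10 listed enteric neuron genes summed to 1106 and 983 CPM outside ribosomal RNA at the wavefront, against 4496 and 4884 in trailing cells. In bulk RNA, fewer cells of a type and less RNA per cell cannot be told apart.

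An integrin is a pair of 1 alpha and 1 beta subunit, and the pair decides the ligand. The beta 1 subunit (Itgb1) pairs with most alpha subunits of the crest: with alpha 5 it binds fibronectin, with alpha 4 fibronectin and VCAM-1, with alpha 6 and alpha 3 laminins, and with alpha v fibronectin and vitronectin. Mouse embryos whose crest lacks beta 1 integrin form an aganglionic distal gut. On the inner side, talins and kindlins bind the beta tail and switch the receptor on. The ILK, PINCH and parvin complex, vinculin and zyxin link it to actin, and FAK, Src, paxillin and p130Cas relay signals.

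Itgb1 had the highest level of all members per kb of merged exons in each library. Its level was 231 and 200.3 CPM outside ribosomal RNA per kb of merged exons at the wavefront, against 134 and 118 in trailing cells. It provided 98.6% and 96.9% of all beta-subunit reads at the wavefront (95% exact binomial intervals 97.0 to 99.5% and 91.2 to 99.4%), against 98.6% and 97.5% in trailing cells (96.0 to 99.7% and 93.8 to 99.3%). Per coding length the adaptor Ilk stood above it in trailing replicate 2, at 214 against 201. In each of the 4 libraries nearly all detected beta-subunit RNA was thus Itgb1. Reads carry no molecular identifiers, so these intervals cover counting error only.

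The other beta subunits were near the limit of detection. Itgb5, a partner of alpha v, had 2 and 1 reads at the wavefront and 0 and 1 in trailing cells. Itgb8, which with alpha v activates latent TGF-beta, had 2 and 2 wavefront reads and 2 and 3 trailing reads. Itgb4, the laminin receptor of epithelial hemidesmosomes, had 1 and 0 reads at the wavefront and 1 and 0 behind it, and Itgb2, the leukocyte beta subunit, had 1 read, in wavefront replicate 1. Itgb3, Itgb6, Itgb7 and Itgb2l had 0 reads. A count of 0 allows up to 3 reads, which is 6.64 and 26.1 CPM outside ribosomal RNA in the wavefront libraries and 7.76 and 9.07 in the trailing libraries.

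Among alpha subunits, 5 had at least 10 reads over the 4 libraries. In order of mean level per kb of merged exons over the libraries, these were Itga6 at 6.75, Itga4 at 6.61, Itgav at 4.81, Itga5 at 4.35 and Itga3 at 2.09 CPM outside ribosomal RNA. Neighbours in this order did not differ beyond their spread: each gene's range over the 4 libraries overlapped that of the next. Per coding length Itga4 came before Itga6. Itga8, the nephronectin receptor subunit, had 0 and 2 wavefront reads and 1 and 1 trailing reads, and Itga9, a tenascin receptor subunit, had 1 and 0 against 1 and 5. The collagen-binding subunits Itga1, Itga2, Itga10 and Itga11 had 0 reads, as did the muscle laminin receptor subunit Itga7.

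Of the subunits named here as leukocyte or platelet subunits, the single Itgb2 read was all that was seen. The leukocyte subunits Itgal, Itgam, Itgax, Itgad and Itgae and the platelet subunit Itga2b had 0 reads in all libraries. This held in wavefront replicate 2 as well, where the erythroid and megakaryocyte marker list summed to 110 reads against 1, 2 and 0 in wavefront replicate 1 and the trailing libraries. The megakaryocyte markers Pf4, Gp9 and Gp1bb were at 0, and so were 6 of 8 leukocyte markers (Ptprc, Fcgr3, Cx3cr1, Adgre1, Lyz2 and Tyrobp). The other leukocyte markers, Cd68 and Csf1r, brought that list to 2 and 1 reads at the wavefront and 2 and 5 in trailing cells. The part of blood cells in the values of the other subunits, such as Itga4, was not tested.

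**Figure D1:**
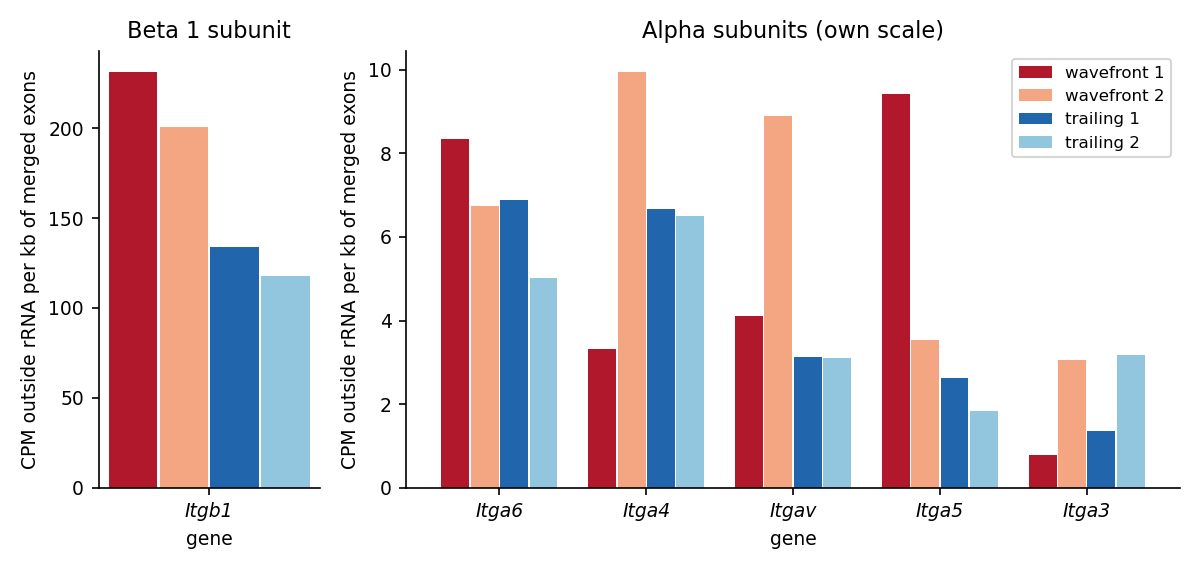
Level of Itgb1 (left) and of the alpha subunits with at least 10 reads (right, on its own scale), in CPM outside ribosomal RNA per kb of merged exons, with 1 bar per library. Itgb1 stood at 231 and 200.3 at the wavefront and at 134 and 118 in trailing cells, and no alpha subunit reached 10 in any library.

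The level of Itgb1 per kb was above that of all alpha subunits together in each library. The ratio was 8.82 and 5.80 at the wavefront and 6.27 and 5.35 in trailing cells with merged exon length, and 5.73 and 3.09 against 3.36 and 2.95 with coding length. The 2 groups overlapped in both. These ratios compare RNA, and protein was not measured.

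The central question of the study is whether the wavefront cells differ from the trailing ones. No member passed the threshold of 0.05 in either test. Limma on log2(CPM + 1), the test set for these values, covered 23 of the 40 members and passed 0 at a Benjamini-Hochberg adjusted p under 0.05, as it did for 0% of all 12519 genes tested. At an unadjusted p under 0.05 it had 1 member, Parvb, lower at the wavefront, against 6.85% of all genes in either direction and 5.78% in that one. The count test was the quasi-likelihood test of edgeR on recovered reads, which covered 15 members and passed 0, while 1.74% of its 5759 genes passed (0.399% higher and 1.34% lower at the wavefront). At an unadjusted p under 0.05 it had 4 members, Zyx, Itgb1, Parva and Vcl, all higher at the wavefront, against 3.98% of all genes in that direction (5.92% were lower, 9.9% in all). DESeq2 tested 13 members and the authors' deposited table gives a p-value for 25. After adjustment 0 members passed in either, where 15 of 3789 and 13 of 14589 genes did. At an unadjusted p under 0.05 each had 1 member, against 89 and 142 of those genes. The filter of the count test takes genes with enough reads in 2 libraries, so the 15 are the abundant members, not a sample of all.

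Of those 15 members, 11 had a log2 fold change (wavefront over trailing) above 0 in the count test, where 50.6% of all genes did. Their median was 0.43, against 0.01 over all genes tested. In limma 11 of 23 members were above 0 and their median was -0.06, against 29.2% of genes above 0 and a median of -0.35 over all genes. Levels of wavefront and trailing libraries did not overlap, on the scaled CPM, for 8 of the 15: 7 were higher and 1 lower at the wavefront, where 18.3% and 20.9% of all genes tested were (39.1% in all). On the deposited CPM 3 of the 23 were higher without overlap and 4 lower, against 6.86% and 30.1% of all genes (37% in all).

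**Figure D2:**
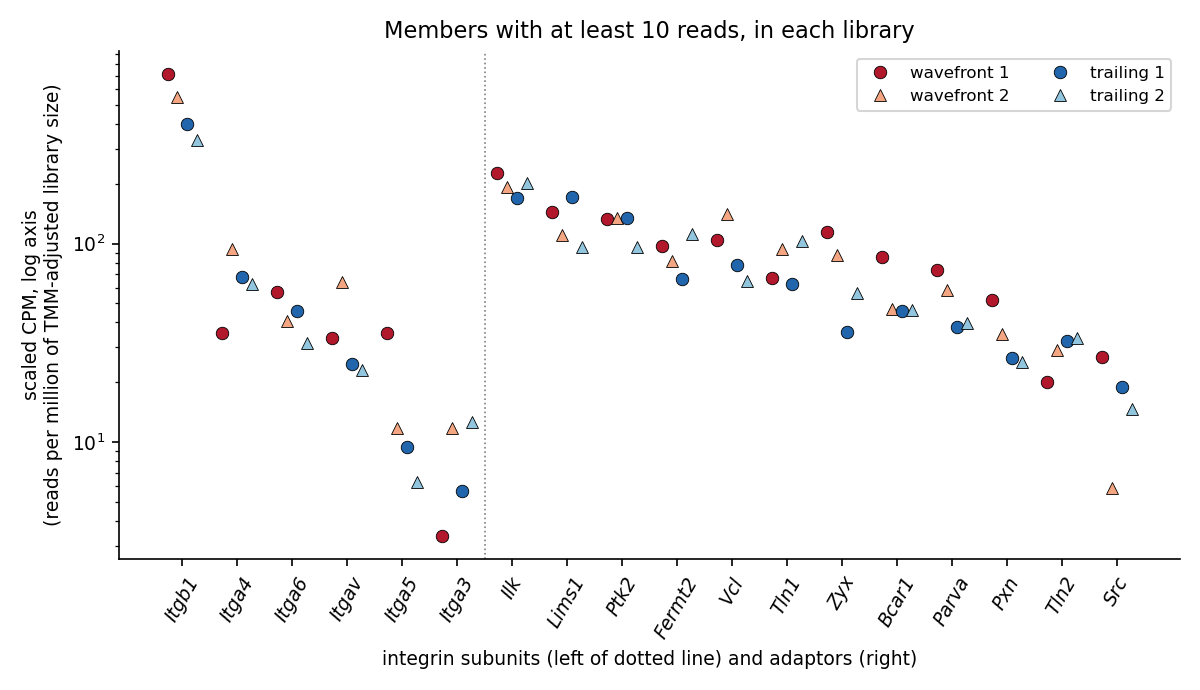
Scaled CPM on a log axis for the 18 members with at least 10 reads, with 1 symbol per library (circles replicate 1, triangles replicate 2), integrin subunits on the left and adaptors on the right. Both wavefront symbols of Itgb1 (717 and 549) and of Zyx (114 and 87.7) lie above both trailing symbols, while those of Ilk, Lims1, Ptk2, Fermt2 and Tln1 are mixed.

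Among the receptors, Itgb1 (chromosome 8, 128685654 to 128733200, GRCm38) had 427 and 94 reads at the wavefront against 211 and 159 in trailing cells. As scaled CPM these were 717 and 549 against 399.6 and 333, and as deposited CPM 786 and 361 against 408 and 352. Both wavefront libraries were higher on the scaled values, but on the deposited values wavefront replicate 2 lay between the trailing libraries. The mean was 633 ± 119 scaled CPM at the wavefront and 366 ± 46.9 in trailing cells (SD, n = 2 each). The log2 fold change was 0.80 ± 0.33 SE (95% interval 0.13 to 1.47; edgeR adjusted p = 0.375), and 0.49 ± 0.57 SE in limma (adjusted p = 0.852). The authors' deposited table gives a log2 fold change of 0.69 for this gene with an unadjusted p of 0.0333.

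Itgav, the alpha v subunit, had 20 and 11 wavefront reads against 13 and 11 trailing reads, which are 33.6 and 64.3 scaled CPM against 24.6 and 23.1. Both wavefront values were above both trailing values, also as deposited CPM (36.8 and 42.3 against 25.1 and 24.3), and the log2 fold change was 0.83 ± 0.48 SE (interval -0.13 to 1.79; edgeR adjusted p = 0.602). Itga6, a laminin receptor subunit, had 57.1 and 40.9 scaled CPM at the wavefront and 45.5 and 31.4 in trailing cells. These groups overlapped (0.43 ± 0.40 SE, interval -0.37 to 1.23; edgeR adjusted p = 0.822).

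For Itga4 the wavefront libraries lay on either side of the trailing ones. This alpha 4 subunit had 21 and 16 wavefront reads against 36 and 30 trailing reads, or 35.3 and 93.5 scaled CPM against 68.2 and 62.9. Wavefront replicate 1 was thus below, and wavefront replicate 2 above, both trailing libraries, whereas on the deposited CPM both wavefront libraries were lower (38.7 and 61.5 against 69.6 and 66.4). The log2 fold change was -0.33 ± 0.38 SE (interval -1.10 to 0.43; edgeR adjusted p = 0.867), and without wavefront replicate 1 it was 0.51. Itga4 shares 1124 exon bases with Cerkl on the other strand, which had 6 reads in all.

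Itga5, the fibronectin receptor subunit, stood out in 1 wavefront library. It had 21 reads in wavefront replicate 1 and 2 in wavefront replicate 2, against 5 and 3 in trailing cells, which are 35.3 and 11.7 scaled CPM against 9.47 and 6.29. It did not reach the filter of the count test. In limma its log2 fold change was 1.04 ± 0.85 SE (interval -1.01 to 3.09; adjusted p = 0.786), and in edgeR without the filter 1.84 ± 0.60 SE (adjusted p = 0.161). Without wavefront replicate 1 the limma value was -0.06. Itga3, a laminin receptor subunit, had 2 and 2 wavefront reads and 3 and 6 trailing reads, too few to tell the groups apart.

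The share of each alpha subunit among all alpha reads does not depend on the scaling of a library. Itga4 made up 21.2% and 40% of alpha reads at the wavefront (95% exact binomial intervals 13.6 to 30.6% and 24.9 to 56.7%), against 43.4% and 42.3% in trailing cells (32.5 to 54.7% and 30.6 to 54.6%). Itga5 made up 21.2% and 5% at the wavefront (13.6 to 30.6% and 0.611 to 16.9%), against 6.02% and 4.23% in trailing cells (1.98 to 13.5% and 0.880 to 11.9%). For both genes the share in wavefront replicate 1 was apart from the others, but its interval overlapped that of wavefront replicate 2. The share in wavefront replicate 2, out of 40 alpha reads, was close to the trailing libraries, with wider intervals than theirs. For Itgav the shares were 20.2% and 27.5% at the wavefront against 15.7% and 15.5%, with intervals that overlapped.

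**Figure D3:**
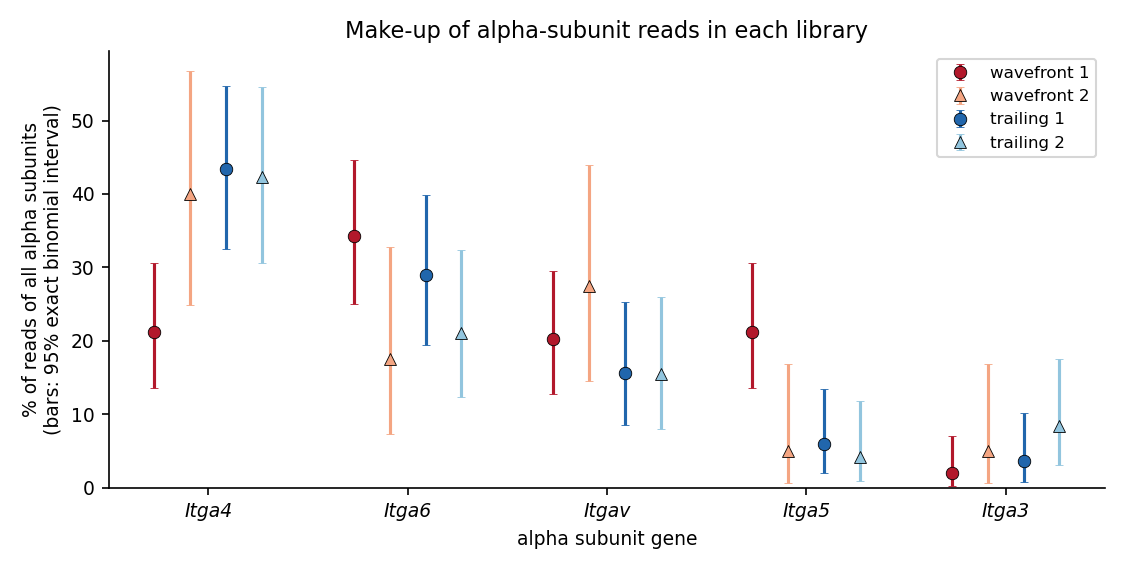
Percentage of all alpha-subunit reads held by each subunit in each library, with 95% exact binomial intervals. Wavefront replicate 1 has equal shares of Itga4 and Itga5 (21.2% each), while in the other 3 libraries Itga4 held 40 to 43.4% and Itga5 4.23 to 6.02%.

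Summed over all receptor genes, the level was 1177 and 1192 CPM outside ribosomal RNA at the wavefront, against 768 and 708 in trailing cells, a ratio of means of 1.60. Most of this sum is Itgb1. Without it the sums were 232 and 374 against 222 and 227, a ratio of 1.35, with wavefront replicate 1 near the trailing libraries. The adaptors summed to 1508 and 1513 at the wavefront against 1211 and 1291, a ratio of 1.21. No test was made on these sums.

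None of the adaptors that bind the beta tail passed. Tln1, talin 1, which opens the integrin by binding its beta tail, had 67.2 and 93.5 scaled CPM at the wavefront against 62.5 and 103 in trailing cells (log2 fold change -0.12 ± 0.34 SE, interval -0.81 to 0.57; edgeR adjusted p = 0.955). Fermt2, kindlin-2, its partner on the tail, had 97.4 and 81.8 against 66.3 and 111 (0.06 ± 0.33 SE, interval -0.60 to 0.73; edgeR adjusted p = 0.974). Groups overlapped for both genes. Tln2, talin 2, had 20.2 and 29.2 at the wavefront against 32.2 and 33.5, where both wavefront libraries were lower (-0.54 ± 0.50 SE, interval -1.55 to 0.47; edgeR adjusted p = 0.824). Per kb, Tln1 stood above Tln2 in every library, at 9.03 and 14.2 against 1.45 and 2.37 CPM outside ribosomal RNA at the wavefront, and at 8.71 and 15.1 against 2.40 and 2.64 in trailing cells.

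Of the complex of ILK, PINCH and parvin, Ilk, the pseudokinase at its core, had the highest level per kb of any adaptor, 109 and 105 CPM outside ribosomal RNA at the wavefront and 84.9 and 106 in trailing cells. Its scaled CPM were 227 and 193 against 170.4 and 201, and the groups overlapped (0.20 ± 0.30 SE, interval -0.41 to 0.81; edgeR adjusted p = 0.907). Ilk shares 2106 of its 2744 exon bases with Taf10 on the other strand, a gene listed with 0 reads in these libraries. Reads from the shared bases cannot be assigned to a strand, so the level of Ilk is uncertain. Lims1, PINCH-1, had 144 and 111 against 172 and 96.4 (-0.03 ± 0.32 SE, interval -0.67 to 0.61; edgeR adjusted p = 0.990). Parva, alpha-parvin, which binds actin, had 44 and 10 reads against 20 and 19, or 73.9 and 58.4 scaled CPM against 37.9 and 39.8. Both wavefront libraries were higher, and the log2 fold change was 0.83 ± 0.37 SE (interval 0.09 to 1.57; edgeR adjusted p = 0.418).

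Parvb, beta-parvin, is the paralogue of Parva and was near the limit of detection. It had 0 and 0 reads at the wavefront against 3 and 3 in trailing cells, at the floor of 3 reads a library. No fold is given, and its place above among members lower at the wavefront is not read as a difference. Its unadjusted p was 0.0103 in limma (adjusted p = 0.680) and 0.0528 in edgeR without the filter (adjusted p = 0.756).

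Zyxin had the largest fold change of the 15 members in the count test. Zyx (chromosome 6, 42349630 to 42360213, GRCm38), a LIM protein of actin stress fibres and mature adhesions, had 68 and 15 wavefront reads against 19 and 27 trailing reads. As scaled CPM these were 114 and 87.7 against 36.0 and 56.6, with both wavefront libraries higher, while as deposited CPM wavefront replicate 2, at 57.6, was just below trailing replicate 2, at 59.7. The log2 fold change was 1.19 ± 0.34 SE (interval 0.51 to 1.88; edgeR adjusted p = 0.0550), the smallest adjusted p of the 15 members. Of 12 alternative settings of the count test, Zyx passed in 2: with DESeq2's size factors (adjusted p = 0.0462) and without wavefront replicate 2 (adjusted p = 0.0103). The range of its adjusted p over the 12 was 0.0103 to 1.00, and its fold change was above 0 in all of them and in limma (0.85 ± 0.52 SE, adjusted p = 0.759). Zyx shares 236 exon bases with Epha1, which had 3 reads.

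Vcl, vinculin, which reinforces the talin to actin link under force, had 62 and 24 wavefront reads against 41 and 31 trailing reads, or 104 and 140.2 scaled CPM against 77.6 and 65.0. Both wavefront libraries were higher, also as deposited CPM (114 and 92.2 against 79.3 and 68.6). The log2 fold change was 0.71 ± 0.32 SE (interval 0.05 to 1.36; edgeR adjusted p = 0.441), and it was above 0 in all 12 alternatives of the count test without passing in any. Vcl shares 2090 of its 8191 exon bases with Ap3m1 on the other strand, which had 103 reads, so some reads of either gene cannot be told apart.

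**Figure D4:**
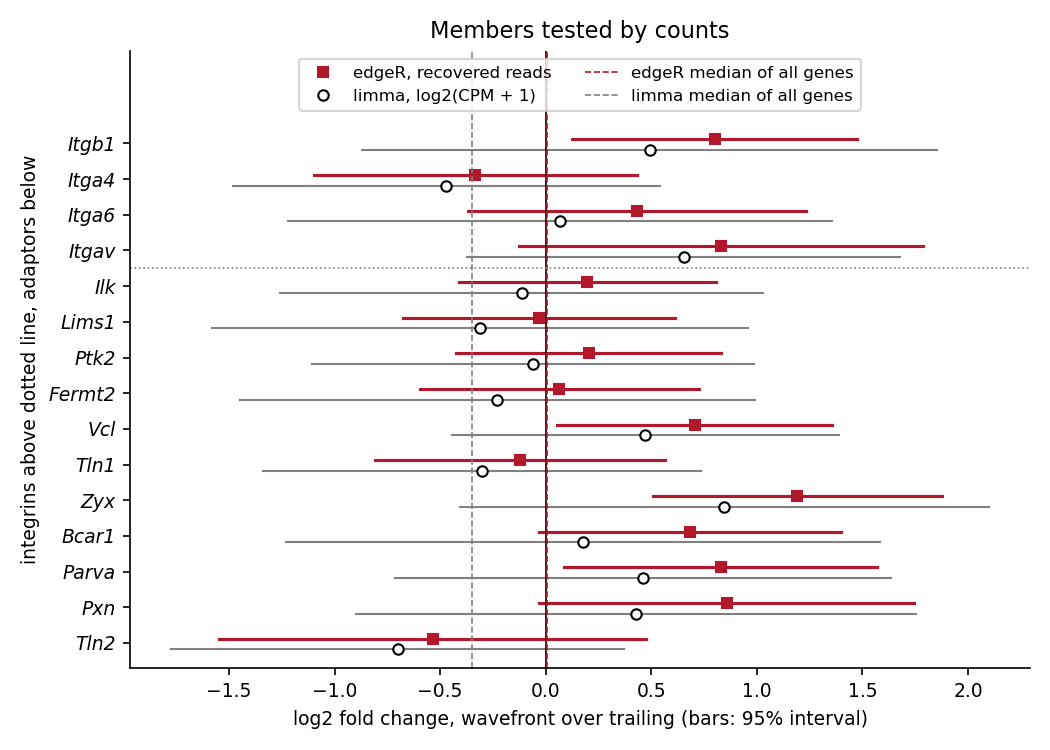
Log2 fold change, wavefront over trailing, of the 15 members tested by counts, with 95% intervals, from edgeR on recovered reads (squares) and limma on log2(CPM + 1) (open circles); dashed lines mark each test's median over all genes (0.01 and -0.35). The edgeR intervals of Itgb1, Vcl, Zyx and Parva lie above 0, and those of the other 11 members cross it.

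None of the signalling adaptors passed either. Ptk2, focal adhesion kinase (FAK), had 133 and 134 scaled CPM at the wavefront against 134 and 96.4 (0.20 ± 0.31 SE, interval -0.42 to 0.83; edgeR adjusted p = 0.907). Pxn, the scaffold paxillin, had 52.1 and 35.1 against 26.5 and 25.1, with both wavefront libraries higher (0.86 ± 0.44 SE, interval -0.03 to 1.74; edgeR adjusted p = 0.530). Bcar1, the docking protein p130Cas, had 85.7 and 46.7 against 45.5 and 46.1 (0.68 ± 0.36 SE, interval -0.03 to 1.40; edgeR adjusted p = 0.537). Its wavefront excess rested on replicate 1, and without that library the log2 fold change was 0.033. Bcar1 is among the members counted as higher without overlap on scaled CPM, though 1 read of wavefront replicate 2 is 5.84 scaled CPM. On the deposited CPM wavefront replicate 2 was below both trailing libraries (30.7 against 46.4 and 48.7). Src, the tyrosine kinase that acts with FAK, had 16 and 1 wavefront reads against 10 and 7, too few for the count test (limma -0.59 ± 0.92 SE, adjusted p = 0.912).

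**Figure D5:**
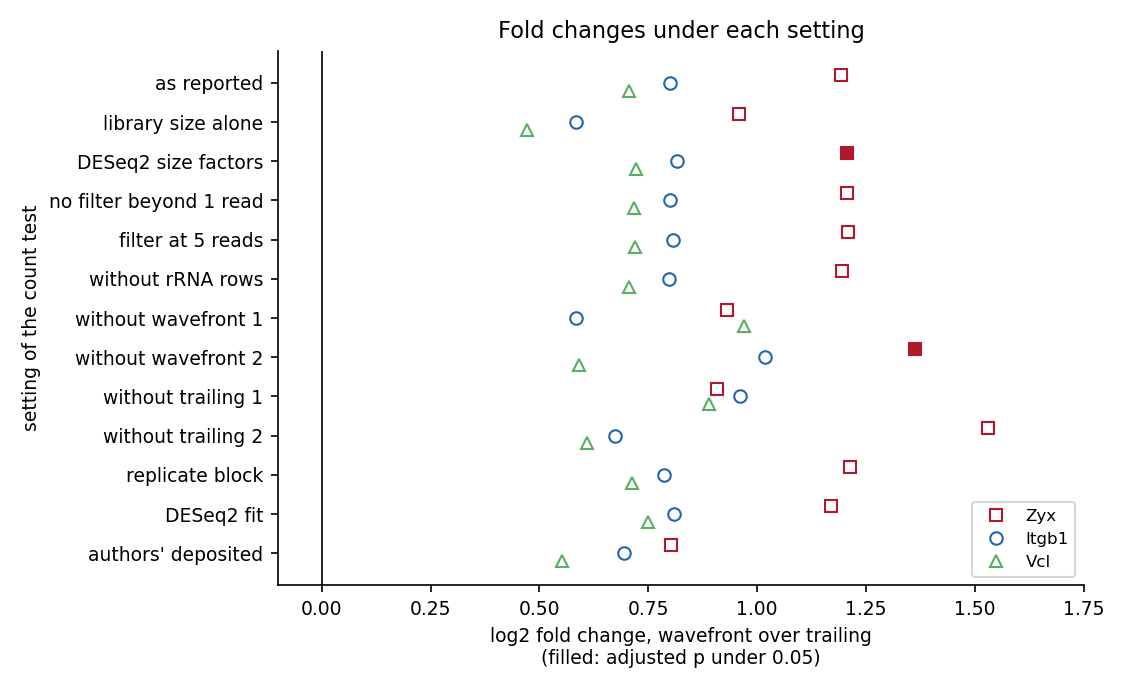
Log2 fold changes of Zyx, Itgb1 and Vcl in the count test as reported and under its 12 alternative settings; filled symbols passed at an adjusted p under 0.05. All lie above 0, with Itgb1 between 0.58 and 1.02, and the 2 filled symbols are those of Zyx with DESeq2's size factors and without wavefront replicate 2.

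Of 58 further genes of focal adhesions, 29 were tested by counts: 0 rose, 1 fell and 28 did not pass, where 1.74% of all genes passed. Their median log2 fold change was -0.01, against 0.01 over all genes. At an unadjusted p under 0.05 the count test had 6 of the 29 higher and 4 lower at the wavefront, against 3.98% and 5.92% of all genes. In limma 49 were tested and 0 passed, with 2 at an unadjusted p under 0.05, against 6.85% of all genes. The gene that fell was Nedd9, a docking protein of the same family as Bcar1. It had 9 and 2 reads at the wavefront against 42 and 38 in trailing cells (log2 fold change -2.46 ± 0.45 SE, edgeR adjusted p = 0.000329). The call held in 10 of 12 alternatives, the exceptions being DESeq2 and the authors' p-values. The difference between Nedd9 and Bcar1 in response was not tested. The next 3 by p did not pass: Tes, testin, a LIM protein that binds zyxin, was at -1.07 ± 0.31 SE (edgeR adjusted p = 0.0704), Lpp, a zyxin relative, at 1.07 ± 0.34 SE (0.11), and the GTPase Rac1 at 1.12 ± 0.37 SE (0.126). Rac1 had 184 reads in wavefront replicate 1 and 9 in wavefront replicate 2, against 50 and 45.

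Among 32 genes of integrin ligands, 14 were tested by counts, of which 5 rose, 1 fell and 8 did not pass, where 0.399% of all genes rose and 1.34% fell. Their median log2 fold change was 0.44, against 0.01 over all genes. In limma 27 were tested and 0 passed, with 7 at an unadjusted p under 0.05, against 6.85% of all genes. Those that rose were Tnc, tenascin C (2.69 ± 0.54 SE), Tgfbi (3.62 ± 0.79 SE), Col3a1 (1.58 ± 0.35 SE), Fn1, fibronectin (1.53 ± 0.34 SE), and Fbn2, fibrillin 2 (1.23 ± 0.33 SE). Their edgeR adjusted p ran between 0.00116 and 0.0322. Postn, periostin, fell by 2.09 ± 0.38 on the log2 scale (edgeR adjusted p = 0.000329). Of the listed alternatives Fbn2 passed in 2 of 12, Col3a1 in 6, Fn1 in 7, Tnc and Postn in 9 each, and Tgfbi in 8 of 11, and none of these 6 passed without trailing replicate 1. Fn1 and the subunits that bind it can be set side by side: Fn1 had 72 and 39 wavefront reads against 31 and 25, Itga5 21 and 2 against 5 and 3, Itgav 20 and 11 against 13 and 11, and Itga4 21 and 16 against 36 and 30.

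Of 10 listed membrane proteins that associate with integrins, 7 were tested by counts and 0 passed, with 4 at an unadjusted p under 0.05, all lower at the wavefront, where 5.92% of all genes were. Their median log2 fold change was -0.83, against 0.01 over all genes. In limma 0 of 10 passed, with 4 at an unadjusted p under 0.05, all lower, where 5.78% of all genes were. The tetraspanin Cd9 had 91 and 23 wavefront reads against 138 and 123 (-0.83 ± 0.31 SE, edgeR adjusted p = 0.251). L1cam, a neural adhesion molecule that binds integrins, was at -0.84 ± 0.32 SE (edgeR adjusted p = 0.289), the integrin-associated Cd47 at -1.44 ± 0.61 SE (0.397) and the tetraspanin Cd63 at -0.99 ± 0.47 SE (0.469).

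Markers of other cells were summed by list. The 15 gut mesenchyme markers, of which 13 had a read and Barx1 and Myh11 were at 0, summed to 511 and 1513 CPM outside ribosomal RNA at the wavefront, against 235 and 248 in trailing cells. Col3a1, which is also among the ligands that rose, and Des held most of these reads. Without this pair, chosen after their values were seen, the sum was 57.5 and 609 at the wavefront against 46.6 and 54.4. Wavefront replicate 1 was then near the trailing libraries, but the choice of the pair partly fixed this, so nothing is concluded from it. Of the 15 markers, 3 were tested by counts: 2 were called higher at the wavefront and 1 did not pass, where 0.399% of all genes were called higher. In limma 13 were tested and 0 passed, where 0% of all genes did. At an unadjusted p under 0.05 limma had 3 of the 13 higher and 0 lower, against 1.07% and 5.78% of all genes. The log2 fold change was above 0 for 12 of the 13, where it was for 29.2% of genes. The median of the 13 was 1.56, against -0.35 over all genes. Markers of the gut epithelium (8 genes, Foxa1 at 0) summed to 26.5 and 87.0 CPM outside ribosomal RNA against 7.76 and 9.07. Those of endothelium (8 genes, none at 0 in all libraries) summed to 64.1 and 104 against 44.0 and 84.7, and the groups overlapped. Mesothelial markers (6 genes, with Wt1, Msln, Upk3b and Lrrn4 at 0) summed to 2 and 2 reads against 1 and 0. Integrins are widely expressed, and the part of such cells in the values of Itgb1, Zyx, Vcl, Parva, Itgav and the ligands was not tested. Of the 2 wavefront libraries, the mesenchyme sum was higher in replicate 2, as were Vcl and Itgav on scaled CPM. So were Tnc, Tgfbi, Col3a1, Fn1 and Fbn2, the ligands that rose. Itgb1, Zyx, Parva and Pxn were higher in replicate 1. Of the mesenchyme markers with a read, Des alone was higher in replicate 1, at 123 against 58.4 scaled CPM. All the others were higher in replicate 2, several of them on few reads. Col1a1 and Pdgfra, for example, were each at 3.36 in replicate 1 and 58.4 in replicate 2. What these orders reflect was not tested.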

How the data were processed

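RNA-seq of 4 libraries (2 wavefront, 2 trailing) was used; cells were freed with collagenase-dispase, sorted by FACS and extracted with Trizol, per the labels' protocols. The build was GRCm38 (mm10), and STAR 2.5.2b, featureCounts, DESeq2, FastQC 0.11.9 and bcl2fastq 2.17 are named as tools, per the submitters' processing notes. Annotation and counting options were not given in the sources used here, and per the labels' protocols the kit was Nextera XT, which does not keep strand. The authors deposited CPM per library, per the file headers. Values went in steps of 1 read, and dividing by that step gave read numbers (100% of values whole within 0.01 reads). The authors' deposited BaseMean is a signal (mean of scaled reads), the deposited fold change is on the log2 scale, the deposited standard error and Wald statistic are scores, and the deposited p-value is not adjusted. Adjustment of that p-value was made here.

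Of 27606 rows, 428 repeated an identifier with the same values and were dropped. The 958 genes without a symbol held 1.27 to 2.51% of a library's reads and were kept under their identifier. The test fixed for CPM was limma 3.58.1 (trended prior variance) on log2(CPM + 1), keeping genes whose CPM averaged over 1. The fold changes of low genes are understated on that scale. Beside it stood edgeR 4.0.16 (quasi-likelihood F test, TMM, filterByExpr with 10 reads) on the recovered reads; DESeq2 1.42.0 was an alternative, under R 4.3.3. Location was the only term. CPM outside ribosomal RNA leaves out the rows of nuclear and mitochondrial ribosomal RNA. P-values are two-sided and Benjamini-Hochberg adjusted over all genes tested. The fits were tested on simulated data. Merged exon and coding lengths, positions and overlaps come from GENCODE M21, on the same build.

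Members and lists were chosen with earlier results of these data known. All 40 members are accounted for: those with at least 10 reads get values and tests, and in other lists the genes called and the 4 with the smallest edgeR p are named. Replicate numbers are shared by the groups, but the labels do not say that they mark a shared litter or day, so the samples were not paired. No table of protein sequences was used here.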

Additional observations from a re-analysis of the deposited data

How the results depend on the processing

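The 15 members tested by counts and the 18 with at least 10 reads tested by limma were recomputed under 12 and up to 11 alternatives, in 178 and 197 values. None passed in limma, and 2, both of Zyx, passed in edgeR. Genes called over the whole table were 0 in limma as reported, and 3 with a pseudocount of 5, 5 without the filter, 36 with a mean CPM above 10, 4 on CPM outside ribosomal RNA, 44 with TMM factors, and 0 with any 1 library left out. They were 100 in edgeR on the recovered reads, 13 by the authors' p-values, 15 in DESeq2, and 40 to 143 with 1 library left out (44 without trailing replicate 1, 40 without trailing replicate 2). With the replicate block the counts were 52 in limma and 61 in edgeR; deviations of libraries with the same number correlated at 0.0589 over 5759 genes, which does not settle whether the numbers pair the libraries, and the block changed no member's call. Members called in edgeR were 1 with DESeq2's size factors, 0 to 1 with 1 library left out, and 0 otherwise.

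Directions of members near 0 depended on the setting, and the cause was not tested. With scaling by library size alone, which moved the median of all genes to -0.20, edgeR gave Fermt2 -0.17, Ilk -0.042 and Ptk2 -0.029. Limma on CPM outside ribosomal RNA gave Fermt2 0.052, Ilk 0.17 and Ptk2 0.22, and with TMM factors Fermt2 0.077, Ilk 0.20, Ptk2 0.25 and Tln1 0.0058. In the same 2 limma settings Itgb1 was at 0.78 and 0.80 and Zyx at 1.13 and 1.15, with 0 members passing in either. Members above 0 were 15 of 24 and 16 of 23, with medians of 0.20 and 0.29 against -0.09 and -0.04 over all genes. With 1 library left out, edgeR ranged between -0.25 and 0.47 for Fermt2, -0.39 and 0.47 for Lims1, -0.0084 and 0.50 for Ptk2, -0.39 and 0.29 for Tln1, and -0.84 and 0.51 for Itga4. Limma ranged between -0.61 and 0.97 for Bcar1, -0.72 and 0.26 for Fermt2, -0.60 and 0.37 for Ilk, -0.87 and 0.24 for Lims1, -0.068 and 0.99 for Parva, -0.42 and 0.30 for Ptk2, -0.21 and 1.06 for Pxn, -1.92 and 0.73 for Src, -0.68 and 0.075 for Tln1, -0.056 and 2.14 for Itga5, -0.53 and 0.66 for Itga6, and -0.069 and 1.05 for Itgb1. The summed receptor ratio was 1.60, 1.35 without Itgb1 and 1.54 to 1.67 with 1 library left out. Itgb1 over the summed alpha subunits per kb averaged 6.56 with merged exons and 3.78 with coding length. Where 1 library was left out, the lone library of its group was assumed to vary like the others. Depth limits the 7 members with 1 to 9 reads and the 15 with none.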
